A study of Homo sapiens with 20 samples.

Results

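ATF4 and 9 genes that it is known to switch on were followed through 20 RNA-seq libraries of MDA-MB-231 cells, an established human breast cancer cell line. The 10 genes, ATF4, DDIT3, TRIB3, ASNS, CHAC1, SESN2, PSAT1, PHGDH, SHMT2 and MTHFD2, were picked by gene symbol from a table of 36601 genes. Each symbol matched 1 row, and all 10 were among the 12149 genes with enough reads to be tested. The libraries form 5 groups of 4. Cells of the 46 °C, 50 °C and 54 °C groups took up biomimetic nanoparticles from 200 µl of medium at 0.1 mg/ml for 4 h, and each well was then lit for 10 min with an 808 nm laser with the laser temperature set to the named value. The nanoparticles-alone group had the 4 h incubation and no laser. The untreated group had neither. In all groups 30000 cells per well had grown for 24 h at 37 °C, 2 wells were pooled for each sample, and no genetic change is named. The heated cells were washed after the laser, and no recovery time is named. The labels number the replicates of each group 1 to 4 without saying what a number stands for, so the p-values rest on sample-to-sample spread, and that spread may be technical only. There is no group with the laser and no nanoparticles, so heat and light on nanoparticle-loaded cells cannot be told apart.

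ATF4 is the transcription factor at the centre of the integrated stress response. Kinases that sense misfolded protein, lack of amino acids, lack of haem or viral RNA phosphorylate the initiation factor eIF2, which lowers protein synthesis in general but favours translation of the ATF4 mRNA through short open reading frames in its leader. ATF4 protein then binds C/EBP-ATF response elements and raises genes for amino acid synthesis and uptake, tRNA charging, redox balance and, in long stress, cell death. Since much of this control acts on translation, the ATF4 mRNA measured here is not a measure of ATF4 protein.

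The letters TGATGNAA are the core of the C/EBP-ATF response element, and a search on both strands for that run was made in RefSeq promoter windows of build GRCh38.p14, each 250 bases before to 50 bases after a gene's start. The table held 14 windows for 9 of the 10 genes; SHMT2 had no entry. The run was present in 2 of the 14, 1 each of ASNS and CHAC1, and in 1270 of 35116 windows of all genes (3.62%). Both windows are shown because these genes had the most positive and the most negative difference of the 10 between replicate numbers, described further on; capitals mark the matched letters. The ASNS window is chr7:97872359-97872658 on the minus strand, and its match begins 68 bases before the start on the gene's own strand. The CHAC1 window is chr15:40953221-40953520 on the plus strand, and its match begins 209 bases before the start and reads on the opposite strand.
ASNS: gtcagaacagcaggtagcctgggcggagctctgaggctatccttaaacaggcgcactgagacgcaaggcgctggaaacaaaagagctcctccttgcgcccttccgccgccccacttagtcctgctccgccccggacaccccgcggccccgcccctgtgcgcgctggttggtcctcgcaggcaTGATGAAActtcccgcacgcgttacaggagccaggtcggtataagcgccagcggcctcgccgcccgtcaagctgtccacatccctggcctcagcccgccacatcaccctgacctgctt
CHAC1: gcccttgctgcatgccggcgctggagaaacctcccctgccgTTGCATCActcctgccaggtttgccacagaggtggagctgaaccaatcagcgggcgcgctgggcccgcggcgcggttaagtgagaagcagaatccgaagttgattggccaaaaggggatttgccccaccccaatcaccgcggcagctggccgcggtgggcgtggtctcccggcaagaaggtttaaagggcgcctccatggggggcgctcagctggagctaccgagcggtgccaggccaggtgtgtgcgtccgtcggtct
A match of this kind describes the letters and does not show that ATF4 was bound there.

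Libraries held 2401179 to 7710976 reads assigned to genes, most in the 54 °C group (6154155 to 7710976) and fewest at 46 °C (2401179 to 3245482). Values below are read counts per library scaled to a common total (CPM), scaled between libraries by the trimmed mean of M-values. A 3' tag library gives about 1 read per transcript molecule it captures, whatever the transcript's length, and levels are compared here only between libraries of 1 gene. Mitochondrial genes took 4.50% to 5.60% of reads at 46 °C and 14.6% to 19.1% at 50 °C, with 12.7% to 14.7% at 54 °C, against 11.1% to 12.5% with nanoparticles alone and 8.79% to 12.5% in untreated cells. The nuclear RNAs MALAT1, NEAT1 and KCNQ1OT1 summed to 2992 to 4878 CPM in all heated libraries, against 1223 to 1866 CPM with nanoparticles alone and 1261 to 2952 CPM in untreated cells. MALAT1 made up most of each sum. KCNQ1OT1 averaged 62.1 CPM at 46 °C, but 15.3 and 19.8 CPM at 50 and 54 °C, against 14.4 CPM with nanoparticles alone and 21.5 CPM in untreated cells. NEAT1 averaged 94.4, 111 and 169 CPM at 46, 50 and 54 °C, against 41.0 and 53.4 CPM in those 2 groups. The part of the mitochondrial share or of the nuclear RNAs in the heating differences given below was not tested. The summed CPM of the 10 genes ran from 492 to 712 over the 20 libraries. VIM, CD44, AXL and CAV1, which mark this mesenchymal-like line, had at least 307 CPM in every library. The hormone receptors ESR1 and PGR, the leukocyte genes PTPRC and CD3E and the red cell gene HBB had a median of 0. The blood cell gene CD14 had a median of 0.70 CPM (0 to 3.92 CPM). The fibroblast gene COL1A1 was low but present in every library, with a median of 4.96 CPM (0.77 to 8.01 CPM). In bulk RNA, fewer cells of one kind and less RNA per cell cannot be told apart.

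With nanoparticles alone against untreated cells, none of the 10 genes changed (Benjamini-Hochberg adjusted p under 0.05 in edgeR's quasi-likelihood test), and neither did any of the 12149 genes tested (0.0% called; 479 genes had an unadjusted p under 0.05). The log2 fold changes of the 10 ran from -0.24 for TRIB3 to 0.18 for SHMT2, with a median of 0.01 and none at an unadjusted p under 0.05. For 5 of the 10 (ATF4, SESN2, PSAT1, SHMT2 and MTHFD2) the 95% interval lay inside a 2-fold change in either direction. For the other 5, ASNS among them with an interval of -1.24 to 1.31, a 2-fold change could not be seen reliably in this fit. The fit sets 4 against 4 libraries and has no term for replicate number, by which ASNS differs, as described further on. Over 17 alternative fits the ASNS log2 fold change ran from -0.30 to 0.37, and that of SESN2 from -0.35 to 0.88.

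None of the 10 genes passed the test after heating either. The background was 0.963% of all tested genes called in either direction at 46 °C against nanoparticles alone, 1.22% at 50 °C and 0.123% at 54 °C, so 0 of 10 is near the background share. The 3 comparisons share the same nanoparticles-alone libraries. At 46 °C the heat-shock co-chaperone DNAJB1, measured beside the 10 genes, was higher by 3.62 ± 0.14 (log2, SE; adjusted p = 7.15e-27, edgeR's quasi-likelihood test). At 50 and 54 °C the DNAJB1 change over nanoparticles alone was -0.06 ± 0.13 and -0.20 ± 0.13 (log2, SE), and neither passed. The median log2 fold change of the 10 genes was 0.02 at 46 °C, 0.09 at 50 °C and 0.05 at 54 °C, against 0.01, 0.02 and 0.01 over all tested genes. Intervals stayed inside a 2-fold change for 4 genes at 46 °C (ATF4, PSAT1, SHMT2 and MTHFD2), for 5 at 50 °C and for 6 at 54 °C.

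**Figure D1:**
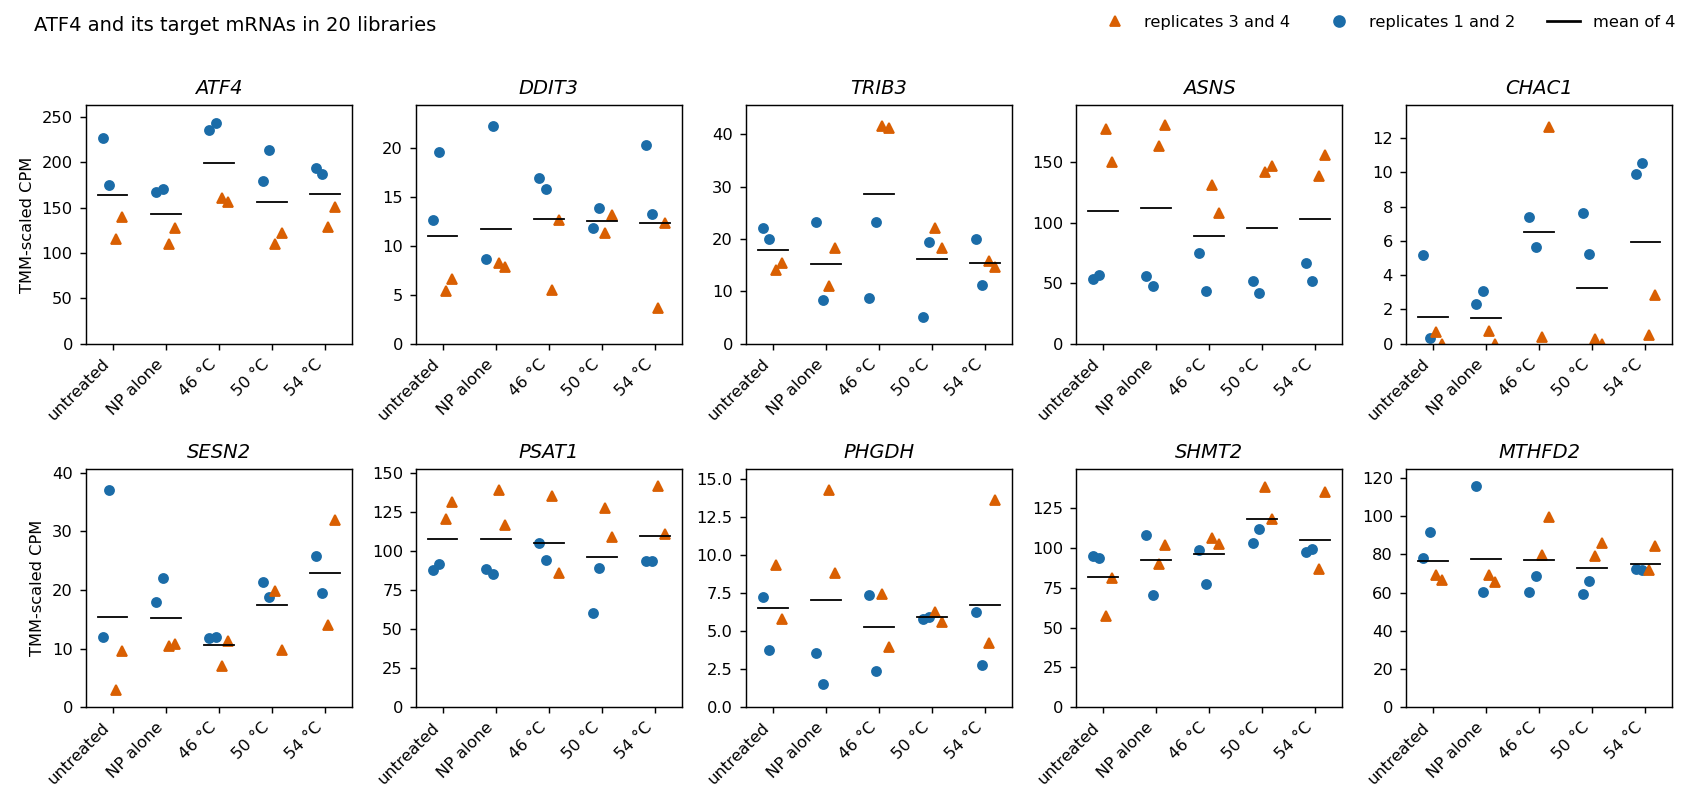
TMM-scaled CPM (linear axes from 0) of each of the 10 genes in the 20 libraries, by condition from untreated to 54 °C (NP, nanoparticles); triangles are replicates 3 and 4, circles replicates 1 and 2, and bars the mean of 4. The ASNS triangles lie above all circles and the ATF4 triangles below all circles, while the bars of a gene differ little between conditions for PSAT1 and MTHFD2.

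ATF4 itself was measured at 227, 175, 115 and 139.7 CPM in untreated replicates 1 to 4 and at 167, 170.2, 109.4 and 127 CPM with nanoparticles alone. It was at 235, 244, 161 and 156 CPM at 46 °C. At 50 °C it was at 179.9, 214, 109.7 and 122 CPM, and at 54 °C at 194, 188, 129 and 150.3 CPM. The highest library was a 46 °C one. Within replicates 1 and 2, and again within replicates 3 and 4, the 46 °C libraries lay above the nanoparticles-alone ones, but over all 4 the groups overlap. The log2 fold change at 46 °C over nanoparticles alone was 0.47 ± 0.23 (SE; 95% interval -0.01 to 0.95; adjusted p = 0.465, edgeR's quasi-likelihood test). With a term that separates replicates 3 and 4 from 1 and 2 the same change was 0.46 ± 0.13 with an adjusted p of 0.0251 by the same test, and 2.16% of all tested genes passed in that fit. Within replicates 1 and 2 it was 0.51 ± 0.17 and within replicates 3 and 4 it was 0.42 ± 0.17, with adjusted p of 0.127 and 0.406 (edgeR). At 50 °C and 54 °C the ATF4 change over nanoparticles alone was 0.12 ± 0.23 and 0.20 ± 0.23 (log2, SE), and neither passed.

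TRIB3, a pseudokinase that ATF4 and DDIT3 induce and that in turn restrains ATF4, had the lowest unadjusted p of the 10 at 46 °C. Its 46 °C libraries had 8.65, 23.3, 41.5 and 41.2 CPM, against 23.3, 8.31, 11.1 and 18.2 CPM in nanoparticles-alone libraries. Replicates 3 and 4 at 46 °C stood above all other libraries of the series, and replicates 1 and 2 stood within the range of the nanoparticles-alone libraries. The log2 fold change was 0.91 ± 0.40 (SE; unadjusted p = 0.0275, adjusted p = 0.358, edgeR's quasi-likelihood test). It was 1.49 ± 0.52 within replicates 3 and 4 and 0.02 ± 0.52 within replicates 1 and 2, and the difference between those 2 values had an adjusted p of 0.914 (interaction term, edgeR). TRIB3 had 15.4 ± 3.68 CPM at 54 °C and 16.2 ± 7.64 CPM at 50 °C, against 28.7 ± 15.8 CPM at 46 °C (SD, n = 4 each). The changes from 46 °C were -0.89 ± 0.39 at 54 °C and -0.82 ± 0.40 at 50 °C (log2, SE), with adjusted p of 0.497 and 0.451 by the same test.

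CHAC1, an enzyme that degrades glutathione, rests on few reads: 356 in all, from 0 in 3 libraries to 83. It had 7.37, 5.67, 0.392 and 12.6 CPM at 46 °C, 7.63, 5.21, 0.252 and 0 CPM at 50 °C and 9.89, 10.5, 0.491 and 2.83 CPM at 54 °C. With nanoparticles alone it had 2.30, 3.06, 0.715 and 0 CPM, and in untreated cells 5.17, 0.311, 0.669 and 0 CPM. Each heated group holds libraries above 5 CPM and at least 1 library under 0.5 CPM, so all groups overlap. The log2 fold change over nanoparticles alone was 2.06 ± 1.17 at 46 °C, 1.07 ± 1.16 at 50 °C and 1.92 ± 1.15 at 54 °C (SE), with adjusted p of 0.542, 0.814 and 0.937 (edgeR's quasi-likelihood test). At 46 °C it was 4.25 ± 1.68 within replicates 3 and 4 and 1.27 ± 1.35 within replicates 1 and 2, with adjusted p of 0.367 and 0.820 by the same test. The interval at 46 °C over all replicates, -0.31 to 4.42, leaves both no change and a large one possible at this depth.

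SESN2 encodes sestrin 2, which lowers mTORC1 activity. It had 25.9, 19.5, 14.1 and 32 CPM at 54 °C and 11.9, 11.9, 7.05 and 11.3 CPM at 46 °C. All 4 libraries at 54 °C lay above all 4 at 46 °C, which holds for 5.73% of tested genes in either direction in that comparison. The log2 fold change was 1.11 ± 0.44 (SE; unadjusted p = 0.0149, adjusted p = 0.407, edgeR's quasi-likelihood test). The nanoparticles-alone libraries had 17.9, 22.1, 10.4 and 10.8 CPM and overlap both heated groups. Of the 10 genes, SESN2 alone was free of overlap in a comparison between conditions, in 1 of 7 comparisons.

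DDIT3 encodes CHOP, a transcription factor that drives death in lasting stress. Its mean was 12.7 ± 5.17 CPM at 46 °C, 12.6 ± 1.19 CPM at 50 °C and 12.4 ± 6.87 CPM at 54 °C, against 11.8 ± 7.03 CPM in nanoparticles-alone libraries (SD, n = 4 each). No change over nanoparticles alone was larger than 0.11 ± 0.46 (log2, SE; 46 °C), with intervals that reach about a 2-fold change. The DDIT3 locus, chr12:57516588-57521737 on the minus strand of GRCh38, overlaps the minus-strand gene AC022506.1 and the plus-strand genes MARS and MBD6, and the strand setting of the read counting is not given in the sources used here, so reads may be split between these genes. ASNS (AC079781.5), SHMT2 (AC137834.2 and NDUFA4L2) and MTHFD2 (SLC4A5) also overlap other genes of the table.

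The 4 remaining enzymes of serine and one-carbon metabolism and the asparagine enzyme did not pass the test in any comparison of conditions. PSAT1, which makes phosphoserine, averaged 105 ± 21.6 CPM at 46 °C, 96.5 ± 28.7 CPM at 50 °C and 109.8 ± 22.5 CPM at 54 °C, against 107.5 ± 25.3 CPM in nanoparticles-alone libraries (SD, n = 4 each). MTHFD2, the mitochondrial methylene-tetrahydrofolate dehydrogenase, had log2 fold changes of -0.01 ± 0.19, -0.10 ± 0.19 and -0.05 ± 0.19 (SE) at 46, 50 and 54 °C, each inside a 2-fold change. SHMT2, the mitochondrial serine hydroxymethyltransferase, had 103, 112, 139 and 118 CPM at 50 °C, against 108, 70.9, 89.7 and 102 CPM in nanoparticles-alone libraries. The 2 groups overlap, and the log2 fold change of 0.35 ± 0.17 had an unadjusted p of 0.0491 and an adjusted p of 0.438 (edgeR's quasi-likelihood test). PHGDH, the first enzyme of serine synthesis, had 1.53 to 14.3 CPM over all libraries, and its widest heating interval was -1.68 to 0.88 on the log2 scale. ASNS, asparagine synthetase, had log2 fold changes of -0.33 ± 0.60, -0.23 ± 0.60 and -0.11 ± 0.59 (SE) at 46, 50 and 54 °C. This fit has no term for the division between replicates described below. Over 17 alternative fits at each temperature, some with such a term, ASNS was not called. Its log2 fold changes there ran from -0.58 to 0.19, from -0.51 to 0.11 and from -0.38 to 0.23.

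**Figure D2:**
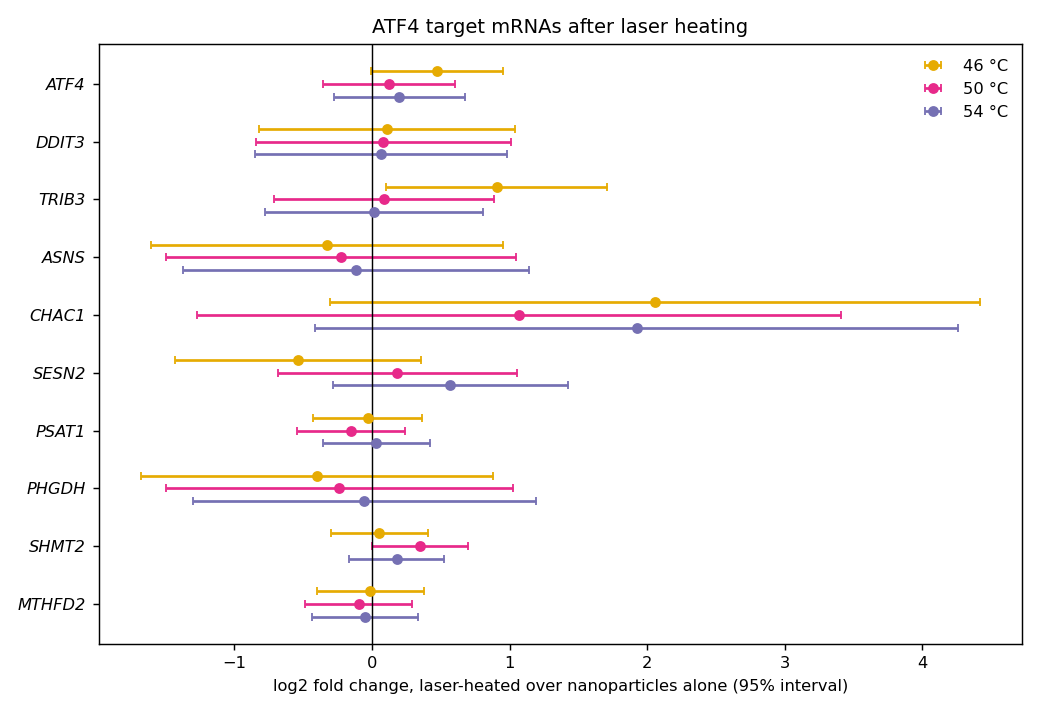
Log2 fold change of each of the 10 genes at 46, 50 and 54 °C over nanoparticles alone, with 95% intervals from edgeR's fit to all 20 libraries. Only the TRIB3 interval at 46 °C, 0.10 to 1.71, and the SHMT2 interval at 50 °C, 0.00 to 0.70, lie above 0, and neither gene passed the adjusted threshold; the CHAC1 intervals are the widest.

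Between heated groups none of the 10 genes passed the test, at 50 °C against 46 °C (1.19% of tested genes called), at 54 °C against 50 °C (0.198%, with 0.0576% higher) or at 54 °C against 46 °C (0.634%). An unadjusted p under 0.05 was reached by TRIB3 at 50 °C against 46 °C and by TRIB3 and SESN2 at 54 °C against 46 °C, with the values given above. The median log2 fold changes of the 10 were -0.06, 0.09 and 0.01 in those comparisons.

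Of 59 other genes of the response, which include eIF2 kinases, eIF2B subunits, partner factors, transporters, tRNA synthetases and further targets, 54 could be tested (NUPR1, ALDH1L2, CBS, STC2 and INHBE had too few reads). At 46 °C against nanoparticles alone 1 of the 54 rose and 2 fell (0.617% of all tested genes rose and 0.346% fell). In the same libraries the summed nuclear RNAs stood at 2992 to 4287 CPM at 46 °C, against 1223 to 1866 CPM with nanoparticles alone, and at 3290 to 4878 CPM at 50 and 54 °C, whose calls follow. PPP1R15A, the subunit that directs protein phosphatase 1 to eIF2 and ends the response, had 251, 287, 269.9 and 301 CPM at 46 °C, against 98.3, 117, 151 and 159 CPM in nanoparticles-alone libraries. All 4 libraries at 46 °C were higher, and 6.96% of tested genes were free of overlap in either direction in this comparison. The log2 fold change was 1.08 ± 0.18 (SE; adjusted p = 1.16e-04, edgeR's quasi-likelihood test). SLC7A5, the catalytic chain of the large neutral amino acid transporter, had 93.5, 94, 112 and 134 CPM at 46 °C, against 170.3, 186, 162 and 201 CPM in nanoparticles-alone libraries. All 4 were lower, with a log2 fold change of -0.73 ± 0.16 (SE; adjusted p = 0.00626, edgeR), with 0.0513 when 46 °C replicate 1 is left out. Untreated cells had 97.7 to 187 CPM of SLC7A5, which overlaps the 46 °C libraries. Their PPP1R15A, at 72.6 to 158 CPM, does not overlap 46 °C. DDIT4, an inhibitor of mTORC1, had 68.6, 79.4, 39.2 and 59.1 CPM at 46 °C, against 177, 166, 138 and 139 CPM in nanoparticles-alone libraries. It fell by 1.33 ± 0.29 (log2, SE; adjusted p = 0.0264, edgeR), and leaving out any of 6 of the 8 libraries, all but 46 °C replicate 2 and nanoparticles-alone replicate 3, gives up to 0.0894. With the term that separates replicates 3 and 4 from 1 and 2, CARS and the stress cytokine gene GDF15 were called higher as well. Their changes were 0.48 ± 0.13 and 1.74 ± 0.33 (log2, SE), with adjusted p of 0.0265 and 3.07e-04 (edgeR). The amino acid transporter SLC38A2 was called lower (-0.81 ± 0.17, adjusted p of 0.00156, edgeR). In that fit 1.29% of all tested genes were called higher and 2.16% in either direction. Untreated cells had 6.85 to 41.0 CPM of GDF15, which overlaps its 15.1 to 52.5 CPM at 46 °C. Their CARS (115 to 148 CPM) and SLC38A2 (114 to 218 CPM) do not overlap 46 °C.

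At 50 °C against nanoparticles alone 1 of the 54 rose and 1 fell (0.527% of all tested genes rose and 0.691% fell). CARS, cysteinyl-tRNA synthetase, had 172, 162, 269 and 259 CPM at 50 °C, against 139.6, 134, 118 and 166 CPM in nanoparticles-alone libraries. Replicate 2 at 50 °C lay below the highest of the nanoparticles-alone libraries, and the log2 fold change was 0.63 ± 0.16 (SE; adjusted p = 0.0276, edgeR's quasi-likelihood test). It was 0.89 ± 0.17 within replicates 3 and 4 and 0.29 ± 0.17 within replicates 1 and 2, and the call was lost, at up to 0.182, without 50 °C replicate 3 or 4 or nanoparticles-alone replicate 1, 2 or 3. DDIT4 had 51.3, 114, 44.8 and 44.9 CPM at 50 °C, all below its nanoparticles-alone libraries. In this comparison 8.33% of tested genes were free of overlap in either direction. DDIT4 fell by 1.28 ± 0.29 (log2, SE; adjusted p = 0.0297, edgeR). That call was kept only when 50 °C replicate 2 was the library left out, and was lost at up to 0.122 without any other of the 8. With the term for replicate pairs GDF15 was called higher at 50 °C as well (1.68 ± 0.33; adjusted p = 5.46e-04) and SLC38A2 lower (-0.81 ± 0.17; adjusted p = 0.00145; log2, SE, edgeR; 1.23% of all tested genes were called higher and 1.48% lower with that term).

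At 54 °C against nanoparticles alone none of the 54 was called (0.0741% of all tested genes rose and 0.0494% fell). DDIT4 had 82.2, 88.1, 65.2 and 41.6 CPM at 54 °C, again with no overlap, as held for 4.28% of tested genes in either direction. Its log2 fold change of -1.16 passed when a term for replicate number or pair was added and in other alternatives given at the end. With the term for replicate pairs, CARS was called higher (0.51 ± 0.13; adjusted p = 0.0455) and SLC38A2 lower (-0.74 ± 0.17; adjusted p = 0.0171; log2, SE, edgeR; 0.214% of all tested genes were called higher and 0.14% lower). PPP1R15A at 50 °C had 159, 151, 184 and 171 CPM and at 54 °C 140.3, 116, 177 and 182 CPM. Both groups lay below all 46 °C libraries, with log2 fold changes of -0.74 ± 0.18 at 50 °C against 46 °C and -0.85 ± 0.17 at 54 °C against 46 °C (SE; adjusted p = 0.0185 and 0.00465, edgeR). The first call was lost, at up to 0.0719, without 46 °C replicate 2 or 4 or 50 °C replicate 1 or 2. Of all tested genes, 0.609% were called lower at 50 °C and 0.395% at 54 °C in these comparisons. Free of overlap in either direction were 7.1% at 50 °C against 46 °C and 5.73% at 54 °C against 46 °C. SLC7A5 had 172, 153, 190.0 and 201 CPM at 50 °C, higher than at 46 °C by 0.73 ± 0.16 (log2, SE; adjusted p = 0.00619, edgeR; 0.584% of all tested genes rose), with 0.0509 when 46 °C replicate 1 is left out.

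None of the 54 was called at 54 °C against 50 °C or with nanoparticles alone against untreated cells. ATF3, PPP1R15B, CEBPB, CEBPG, SLC7A11, SLC3A2 and PSPH did not pass in any of the 7 comparisons of conditions. ATF3, a partner factor that ATF4 induces, had a log2 fold change of 1.25 ± 0.57 at 46 °C over nanoparticles alone (SE; adjusted p = 0.401, edgeR). PPP1R15B, the constitutive eIF2 phosphatase subunit, had one of -0.12 ± 0.24 at 46 °C. The values were -0.32 ± 0.35 and 0.21 ± 0.25 at 46 °C for the partner factors CEBPB and CEBPG, 0.27 ± 0.25 and -0.02 ± 0.14 for the cystine transporter chains SLC7A11 and SLC3A2, and 0.29 ± 0.32 for PSPH, the last enzyme of serine synthesis (all log2, SE, over nanoparticles alone).

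**Figure D3:**
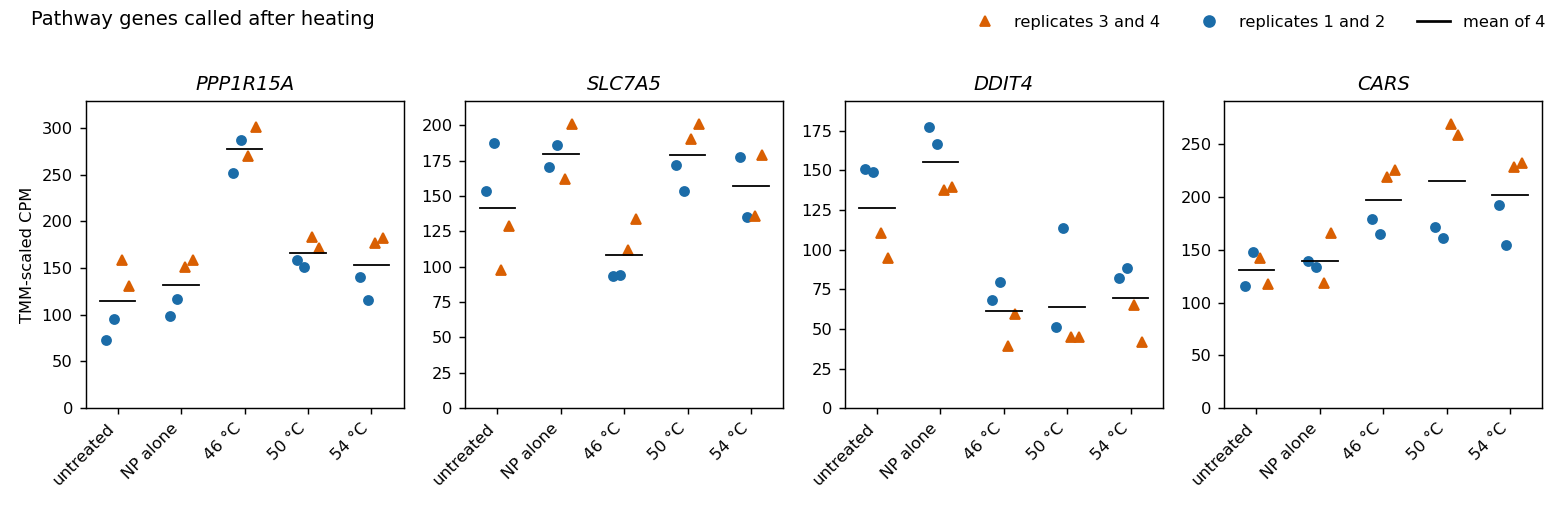
TMM-scaled CPM (linear axes from 0) of the 4 other genes of the response that were called after heating, in the 20 libraries by condition (NP, nanoparticles); triangles are replicates 3 and 4, circles replicates 1 and 2, bars the mean of 4. PPP1R15A stands at 251 to 301 CPM at 46 °C and at 98.3 to 159 CPM with nanoparticles alone, and DDIT4 is at or below 114 CPM in all heated libraries and at or above 138 CPM with nanoparticles alone.

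Some of the 10 genes also differed between replicate numbers. Replicates 3 and 4 of the 5 groups were set against replicates 1 and 2, 10 libraries against 10, with the groups kept in the fit. This division was first noticed in these same libraries and ASNS was singled out there, so the p-values are not independent evidence for it. They set a difference against the spread between single libraries and take no account of what libraries of a replicate pair may share. ASNS and PSAT1 were higher and ATF4, DDIT3 and CHAC1 were lower in replicates 3 and 4, so 5 of 10 genes were called where 8.82% of all tested genes were (4.17% higher and 4.65% lower). What the numbers share is not given in the sources used here.

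ASNS had 177 and 149.8 CPM in untreated replicates 3 and 4 and 163 and 181 CPM in nanoparticles-alone cells. The heated cells of the same replicates had 131 and 107.7 CPM at 46 °C, 141 and 146 CPM at 50 °C, and 138 and 156 CPM at 54 °C. In replicates 1 and 2 it had 53.8 and 56.7 CPM untreated and 55.8 and 47.9 CPM in nanoparticles-alone cells, with 74.6 and 43.6 CPM at 46 °C, 51.5 and 41.9 CPM at 50 °C, and 66.6 and 51.4 CPM at 54 °C. Every library of replicates 3 and 4 lay above every library of replicates 1 and 2, and 0.543% of tested genes were free of overlap in either direction. The log2 difference was 1.45 ± 0.10 (SE; 95% interval 1.25 to 1.66; adjusted p = 2.98e-20, edgeR's quasi-likelihood test), 2.74-fold. Within each condition ASNS was called as well, with log2 differences of 1.57 in untreated cells and 1.73 in cells with unheated nanoparticles. It was 1.01 at 46 °C, and 1.62 and 1.32 at 50 °C and 54 °C. The change of that difference at 46 °C against nanoparticles alone, -0.72, had an unadjusted p of 0.0228 and an adjusted p of 0.835 (interaction term, edgeR).

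ATF4 went the other way. Its replicates 3 and 4 had 109.4 to 161 CPM with a median of 128, and its replicates 1 and 2 had 167 to 244 CPM with a median of 191. No values overlapped, and the log2 difference was -0.60 ± 0.08 (SE; adjusted p = 1.33e-08, edgeR's quasi-likelihood test). Within conditions it lay between -0.77 and -0.45 and was called at 50 °C (adjusted p = 0.00598) and in untreated cells (adjusted p = 0.0157, edgeR). The 10 libraries with the higher ASNS mRNA were thus the 10 with the lower ATF4 mRNA.

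**Figure D4:**
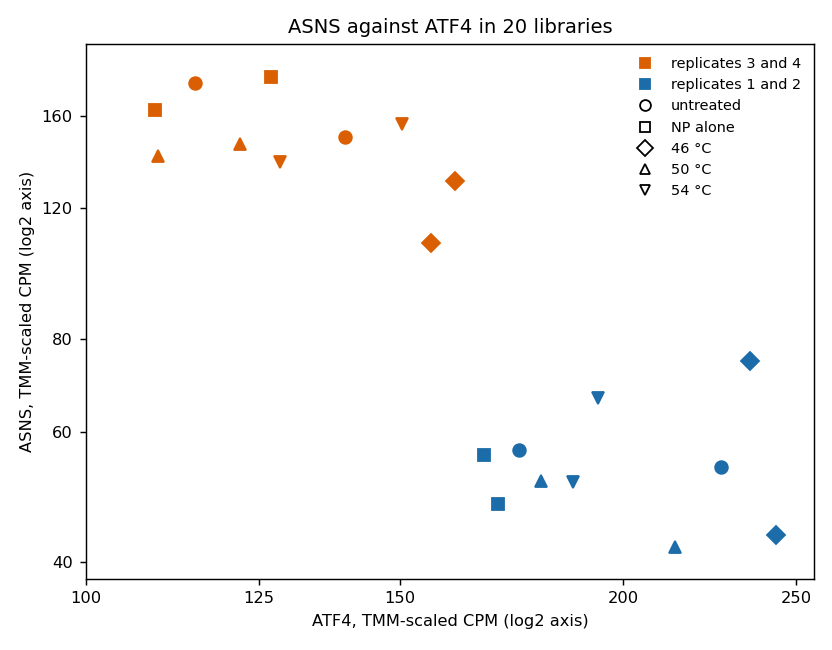
ASNS against ATF4 in 20 libraries, both as TMM-scaled CPM on log2 axes; orange symbols are replicates 3 and 4, blue symbols replicates 1 and 2, and the shape gives the condition (NP, nanoparticles). The orange libraries fill the upper left, with ASNS at 107.7 to 181 CPM, and the blue ones the lower right, with ASNS at 41.9 to 74.6 CPM.

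DDIT3 had 3.60 to 13.2 CPM (median 8.04) in replicates 3 and 4, against 8.71 to 22.3 CPM (median 14.9) in replicates 1 and 2. The ranges overlap, and the log2 difference was -0.87 ± 0.27 (SE; adjusted p = 0.0295, edgeR's quasi-likelihood test). The call was lost, at up to 0.109, without replicate 3 at 46 °C, replicate 1 or 3 at 54 °C, replicate 2 with nanoparticles alone, or replicate 2 or 3 of the untreated cells. CHAC1 had 0 to 12.6 CPM (median 0.441) in replicates 3 and 4, against 0.311 to 10.5 CPM (median 5.44) in replicates 1 and 2, with 64 reads against 292. Replicate 4 at 46 °C was the highest library of all and belongs to the lower side. The log2 difference was -2.50 ± 0.70 (SE; adjusted p = 0.0119, edgeR), and 0.0503 without untreated replicate 1.

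PSAT1 had 85.7 to 141 CPM (median 124) in replicates 3 and 4, against 60.5 to 105 CPM (median 90.2) in replicates 1 and 2. Of replicates 3 and 4, only replicate 4 at 46 °C fell inside the range of replicates 1 and 2, and the log2 difference was 0.46 ± 0.10 (SE; adjusted p = 4.20e-04, edgeR's quasi-likelihood test). SESN2 differed by -0.69 ± 0.25 (log2, SE) and did not pass (adjusted p = 0.0704, edgeR), and passed when replicate 4 at 46 °C, replicate 3 at 50 °C, or replicate 2 or 4 at 54 °C was left out. Within untreated cells SESN2 had 3.01 and 9.68 CPM in replicates 3 and 4, against 12 and 37 CPM in replicates 1 and 2, a called log2 difference of -1.95 ± 0.57 (adjusted p = 0.0442, edgeR). PHGDH differed by 0.76 ± 0.40, TRIB3 by 0.29 ± 0.24, SHMT2 by 0.07 ± 0.10 and MTHFD2 by 0.06 ± 0.11 (log2, SE), and none of these 4 passed; the intervals of the last 3 lay inside a 2-fold change.

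Within single conditions the count of called genes among the 10 was 3 in untreated cells (2.74% of all tested genes called, and 1.52% called lower; ATF4 and SESN2 were the lower ones), 1 in nanoparticles-alone cells (0.379%), 1 in the 46 °C group (0.955%), 2 in the 50 °C group (1.14%) and 1 in the 54 °C group (1.07%). ASNS was in each of these counts. None of the 10 genes passed a test of whether a change between conditions differed between the replicate pairs (interaction terms in edgeR; over all tested genes 0.0494% passed at 54 °C against 46 °C, 0.00823% at 54 °C against nanoparticles alone and none in the other 5).

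Among the 54 other genes of the response, 19 were higher and 4 lower in replicates 3 and 4, where 4.17% of all tested genes were called higher and 4.65% lower. The aminoacyl-tRNA synthetases, which charge tRNAs, made up 9 of the 19: of 12 tested, YARS, GARS, AARS, SARS, LARS, MARS, CARS, TARS and EPRS were higher and none was lower (4.17% and 4.65% of all tested genes), with a median log2 difference of 0.35 over the 12. GARS had 167 to 268 CPM (median 215) in replicates 3 and 4, against 105 to 189 CPM (median 142) in replicates 1 and 2, a log2 difference of 0.61 ± 0.08 (SE; adjusted p = 2.56e-09, edgeR's quasi-likelihood test). YARS was higher by 0.73 ± 0.10 (adjusted p = 7.83e-08) and EPRS, the smallest of the 9, by 0.24 ± 0.08 (adjusted p = 0.0356, edgeR). The EPRS call was lost, at up to 0.147, without replicate 1, 2 or 3 at 46 °C, any replicate at 50 °C, replicate 1, 2 or 3 with nanoparticles alone, or untreated replicate 3.

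Of 8 amino acid transporters 4 were higher and 1 was lower, against 4.17% and 4.65% of all tested genes. SLC7A11, SLC7A1, SLC1A5 and SLC3A2 were higher by 0.50 ± 0.10, 0.47 ± 0.08, 0.44 ± 0.08 and 0.30 ± 0.07, and SLC38A2, a neutral amino acid transporter, was lower, at -0.69 ± 0.11 (all log2, SE). Of 8 tested genes of serine, one-carbon and proline synthesis, MTHFD1L (0.41 ± 0.14) and PYCR1 (0.35 ± 0.11) were called higher. PYCR1 lost its call, at up to 0.0848, without replicate 1 or 4 at 50 °C, replicate 1, 2 or 4 at 54 °C, or untreated replicate 1 or 3. MTHFD1L kept its call only without replicate 2 or 4 at 46 °C, 1 or 4 at 50 °C, 2 or 3 at 54 °C or 2 with nanoparticles alone, and leaving out any other library gave up to 0.149. PSPH differed by 0.10 ± 0.20 and did not pass. Of the 8 tested further targets, GDF15, a secreted stress cytokine, was higher by 1.15 ± 0.20, EIF4EBP1, a repressor of cap-dependent translation, by 0.89 ± 0.13 and the tRNA exporter XPOT by 0.39 ± 0.11, and DDIT4 was lower, at -0.59 ± 0.11 (log2, SE).

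Of 5 tested partner and related factors 2 were lower, against 4.65% of all tested genes. CEBPB had 30.6 to 62.3 CPM in replicates 3 and 4, against 70.2 to 103 CPM in replicates 1 and 2. Its values did not overlap, as held for 0.543% of tested genes in either direction. The log2 difference was -0.85 ± 0.11 (SE; adjusted p = 2.38e-08, edgeR's quasi-likelihood test). ATF3 was lower, at -1.34 ± 0.32 (log2, SE; adjusted p = 0.00179), and CEBPG differed by 0.38 ± 0.15 and did not pass (adjusted p = 0.101, edgeR; 0.0495 without 54 °C replicate 1). Of 13 eIF2 kinases, eIF2B subunits and eIF2 regulators 12 were not called, PPP1R15B among them at 0.02 ± 0.14, and PPP1R15A was higher by 0.41 ± 0.08 (log2, SE).

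**Figure D5:**
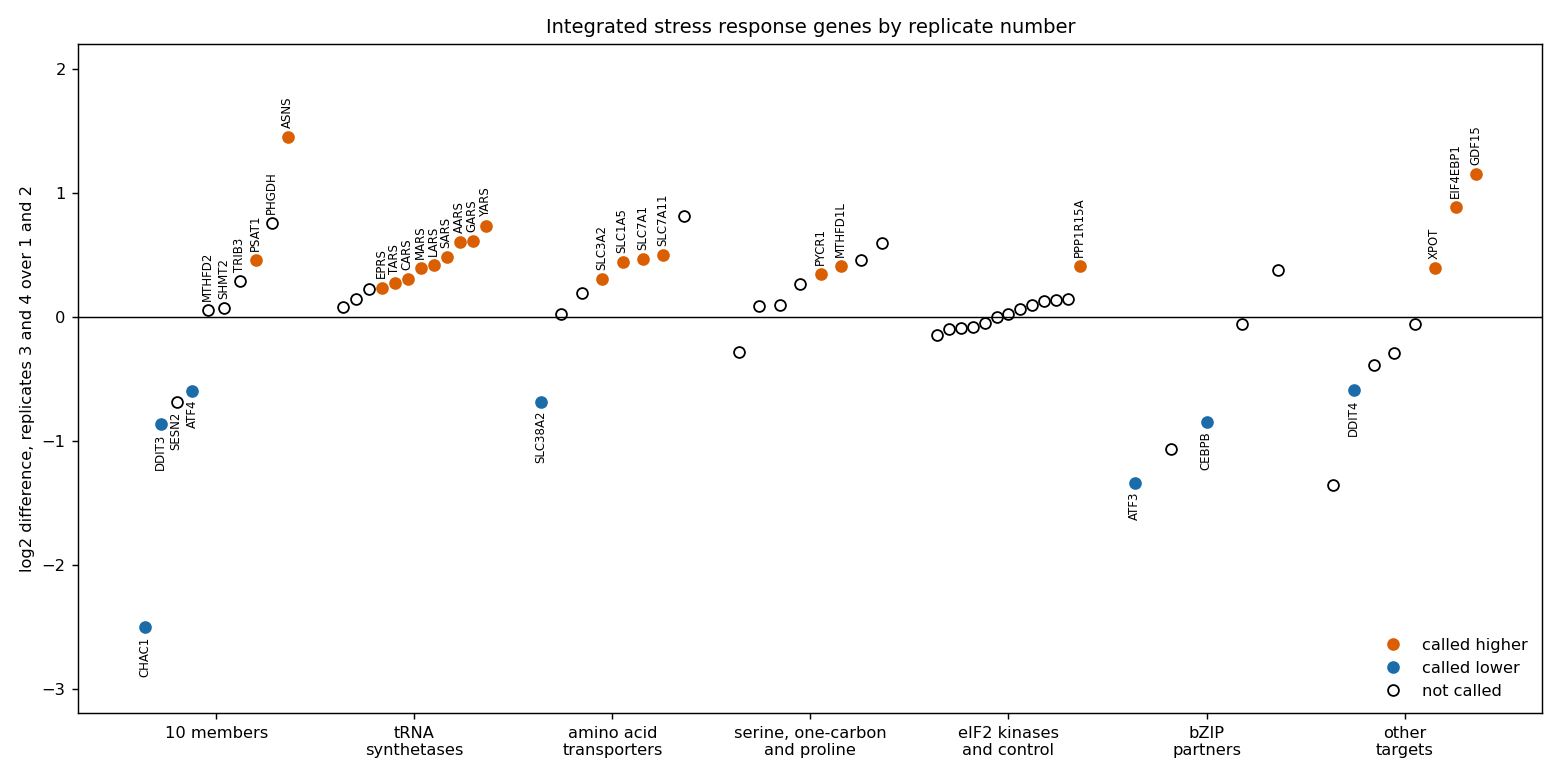
Log2 difference of replicates 3 and 4 over replicates 1 and 2 for the 10 genes and 54 other genes of the response, grouped by role; filled points were called higher (orange) or lower (blue), open points were not called. Of the synthetases 9 of 12 points are filled above 0, while ATF4, DDIT3, CHAC1, ATF3 and CEBPB are filled below 0.

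Depth and RNA composition also differed between the replicate numbers within conditions. Both read totals of replicates 3 and 4 lay below both totals of replicates 1 and 2 in 3 of the 5 conditions, untreated (2428487 and 2923264, against 3241988 and 4952115), 46 °C (2401179 and 2897511, against 2944515 and 3245482) and 54 °C (6154155 and 6304914, against 6908286 and 7710976). The nuclear RNAs MALAT1, NEAT1 and KCNQ1OT1, summed, were higher in both libraries of replicates 3 and 4 than in both of replicates 1 and 2 in 4 of the 5 conditions. The sums are mostly MALAT1, which averaged 3392 CPM in replicates 3 and 4, against 2567 CPM in replicates 1 and 2. NEAT1 averaged 88.1 against 99.5 CPM and KCNQ1OT1 28.6 against 24.6 CPM. The sums were 2677 and 2952 CPM, against 1261 and 1792 CPM, in untreated cells and 1866 and 1824 CPM, against 1558 and 1223 CPM, in nanoparticles-alone cells. They were 4509 and 4036 CPM, against 3571 and 3290 CPM, at 50 °C and 4787 and 4878 CPM, against 3719 and 4102 CPM, at 54 °C. At 46 °C the 2 pairs overlapped. The part of depth and of these RNAs in the differences between replicate numbers was not tested.

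The genes whose profile over the 20 libraries was most like that of ATF4, by the root mean square difference of centred log2 CPM, were NDUFS5, MYL6, DBI, ATP5MPL and SOD1 (0.11 to 0.17, where ATF4 itself had an SD of 0.35). All 5 were lower in replicates 3 and 4, by log2 differences of -0.70 to -0.40. These 5 genes were picked by likeness over the same 20 libraries, so the shared direction follows largely from the choice. Their annotated transcripts, 548 to 1659 bases, lie in the shortest of 5 equal length classes of the tested genes. That of ATF4, with 2019 bases, lies in class 2 from the shortest, as does that of ASNS, with 2356 bases. Over all tested genes with an annotated length, the median difference between replicate pairs was -0.04 in the shortest class and 0.05 in the longest. It was -0.002 in class 2, which holds ATF4 and ASNS. This check was added after these values were seen. The part of transcript length in the ATF4 difference was not tested. For ASNS the most similar genes included SEMA7A, EIF4EBP1, IL24 and CDCP1 (0.41 to 0.44, where ASNS had an SD of 0.76). All were higher in replicates 3 and 4 by 0.68 to 1.11 (log2), and here too the direction follows largely from the choice.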

How the data were processed

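RNA was sequenced from 3' tags (QuantSeq FWD V2) in 20 samples. Per the submitters' processing notes, STAR and Salmon were used with GRCh38; versions, annotation, strand setting and use of molecular tags are not stated there. The authors deposited estimated counts per gene, of which 1.74% to 2.90% per library were not whole numbers; they were rounded. Genes with at least 10 reads in enough libraries and 15 in total were kept by edgeR 4.0.16 (R 4.3.3), 12149 genes holding at least 99.7% of reads. The quasi-likelihood test was fitted to all 20 samples with 5 group means, TMM scaling and p-values adjusted over all tested genes; SE and 95% intervals come from that fit. DESeq2 1.42.0, limma-voom (limma 3.58.1), library totals, no filter, only the 2 groups, terms for replicate number or pair, fits within pairs and leaving out each library were alternatives. The script was tested on simulated data. The 10 genes and all lists were chosen with earlier results of these data known. The text names all 10 genes, 8 set genes of the wider list, its 3 called genes of smallest p in each comparison, and the 5 genes most like ATF4 and ASNS, of which 1 is not reported here; other called genes were named after their values were seen. Single replicate numbers did not pair the samples beyond the division of 1 and 2 from 3 and 4, which the main fit leaves out.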

Additional observations from a re-analysis of the deposited data

Results flagged for a closer look

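In groups of 4 libraries, a lone sample was marked where its gap to the next one took up more of the group's range than Dixon's 95% critical value for that size; 50 groups were examined, and chance marks about 1 in 20. In all, 5 values stood apart in this way. DDIT3 with nanoparticles alone had its highest library at 22.3 CPM (replicate 2). CHAC1 in untreated cells had its highest library at 5.17 CPM (replicate 1). SESN2 at 46 °C had its lowest library at 7.05 CPM (replicate 3). MTHFD2 had its highest library at 116 CPM with nanoparticles alone (replicate 1) and at 84.4 CPM at 54 °C (replicate 4).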

How the results depend on the processing

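The 10 genes gave 0 calls in each of the 7 comparisons of conditions under all alternatives run, except that ATF4 at 46 °C against nanoparticles alone was called with the pair term (count of 1; 0.46) and with the replicate block (count of 1; log2 fold change 0.47, adjusted p = 0.0234, edgeR). Single numbers do not pair the samples beyond the division of 1 and 2 from 3 and 4. Same-numbered libraries correlated by 0.02 to 0.07 in their deviations (median 0.04). Other libraries of the same pair of numbers correlated by -0.01 to 0.07 (median 0.04), and libraries of different pairs by -0.08 to -0.01 (median -0.04). Of 20 libraries, 9 correlated best with their own number. No member's called value changed sign; 188 of 1414 values of genes called in neither fit did. Over 20 fits that each leave out 1 library, 2 genes were higher in replicates 3 and 4 and 2 to 4 lower; DESeq2 gave CHAC1 no adjusted p.

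Counts over the 54 other genes, higher at 46 °C against nanoparticles alone, were 3 with the pair term or replicate block. Of all tested genes 1.29% and 1.33% were called higher in those 2 fits, against 0.617% in the main fit. The count over the 54 was 2 within replicates 1 and 2, 4 within replicates 3 and 4, and 2 with no filter or only the 2 groups. At 50 °C the higher count was 2 with the pair term, block, no filter or only the 2 groups, and 0 within replicates 1 and 2, by library totals or by limma-voom; the lower count was 2 with the pair term, block or only the 2 groups. At 54 °C the higher count was 1 with the pair term or block; the lower count was 2 with the pair term, block or within replicates 3 and 4, and 1 within replicates 1 and 2, with no filter, only the 2 groups, limma-voom or DESeq2. At 50 °C against 46 °C it was 2 higher within replicates 1 and 2 and 2 lower by library totals. At 54 °C against 46 °C it was 2 higher with the pair term or block, 1 higher within replicates 1 and 2 or with no filter, and 2 lower with the pair term. Leaving out 1 library gave 0 to 1 higher and 0 to 1 lower at 50 °C, 0 to 2 lower at 46 °C, and 0 to 1 higher and 0 to 1 lower at 50 °C against 46 °C. With the pair term, 1.23% of all tested genes were called higher and 1.48% lower at 50 °C, and 0.214% and 0.14% at 54 °C. All-gene counts also changed with the settings, over the ranges given below. The cause was not tested.

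All-gene counts ranged from 81 to 269 at 46 °C (117 as reported), 80 to 333 at 50 °C (148), 8 to 46 at 54 °C (15), 96 to 420 at 50 °C against 46 °C (145), 18 to 69 at 54 °C against 50 °C (24), 49 to 180 at 54 °C against 46 °C (77) and 925 to 1243 between replicate pairs (1072). Library totals in place of TMM moved the median of all genes by -0.12 at 50 °C against nanoparticles alone and by -0.17 at 50 °C against 46 °C, with splits of 50 higher and 227 lower and of 46 higher and 374 lower; the splits were 95 and 33 at 46 °C, 22 and 16 at 54 °C against 50 °C, and 21 and 81 at 54 °C against 46 °C. CHAC1, PHGDH, DDIT3, TRIB3 and SESN2 rest on 356 to 1483 reads over 20 libraries, which limits what could be seen for them.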
